A study of Mus musculus with 12 samples.

Results

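Growth of the control mouse heart between 1 and 2 months of age was followed across all measured genes by comparing 3 hearts of 2-month-old GRflox mice with 3 hearts of 1-month-old GRflox mice. These are 6 of the 12 hearts of the series, and they were taken by their labels. All 6 came from male mice on the C57BL/6 background that carried floxed alleles of the glucocorticoid receptor gene and no Cre transgene, so the receptor was left in place and no wild-type heart served as a further control. The other 6 hearts came from cardioGRKO littermates, male mice of the same 2 ages in which Cre driven by the αMHC promoter deleted the floxed receptor gene in cardiomyocytes, and they are described below as separate animals of the same ages. Their arrays also entered the common fit, where they add to the estimate of the spread behind the standard errors and p-values of the control comparison. Total RNA of each whole heart was hybridised to 1 Agilent whole mouse genome array in a single colour (Cy3).

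The mouse heart leaves its growth by cell division soon after birth and thereafter enlarges mainly as its cardiomyocytes lengthen and thicken, while fibroblasts and endothelial cells go on dividing for some weeks. Over the same period fibroblasts lay down the collagen network of the ventricle, imprinted genes that drive fetal growth are switched down in many organs, and the muscle settles on adult contractile isoforms and on fatty acids as its fuel. A whole heart mixes all of these cells, and fewer cells of a type cannot be told apart here from less RNA in each of them.

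Levels are given as the log2 processed intensity minus the 75th percentile of the same array, so a negative level lies below that percentile and 1 unit is a doubling. Differences are 2 months minus 1 month on that log2 scale with the standard error (SE) of the limma fit, n = 3 hearts per group, and p-values are limma's, two-sided and adjusted over all genes by the Benjamini-Hochberg method. A gene rose or fell where its adjusted p was under 0.05. The 75th percentile of the 6 control arrays ran from 886 to 1372 intensity units. Between 68.8% and 73.6% of probes were well above background on 5 of them and 82.2% on the array of GRflox_2month replicate 2, which stood apart. All 3 arrays of 1-month controls shared 1 slide that held no other array, so for them slide and age cannot be told apart. The knockout hearts have a pair of different ages on 1 other slide, and values within that slide are given for the main groups of genes with the knockout hearts. The heart was present as labelled: the ventricular genes Myl2 and Tnni3 lay at 9.05, 8.99 and 9.27 and at 8.76, 8.52 and 8.82 in the 1-month hearts.

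Of 21909 genes tested, 463 (2.11%) differed between the ages, 172 (0.785%) rising and 291 (1.33%) falling with age. Counts of list members that rose or fell are to be read against these shares. The unadjusted p was under 0.05 for 3483 genes (15.9%), where 1095 would be met without any difference. Mitotic genes such as Prc1 and collagens such as Col3a1 were among those that fell, and muscle and metabolic genes such as Myot and Bdh1 among those that rose. The median of all genes was 0.12 higher at 2 months under the scaling used, 0.01 higher with quantile normalization and 0.13 lower with median centring. Under the scaling used 35.5% of all genes were lower at 2 months. Counts of list members higher or lower in control hearts are to be read against that share. Quantile normalization gave 116 rises and 259 falls, and median centring 7 and 69, so the balance of rises against falls depends on the scaling. Each 2-month heart on its own lay below the 1-month mean in 290, 290 and 291 of the 291 genes that fell, and above it in 171, 172 and 172 of the 172 that rose. These genes were chosen from the same 6 hearts, so the counts were nearly fixed by that choice and add no separate support. The same holds wherever the groups or ages of a gene that rose or fell are said below not to overlap. When the 6 control arrays were fitted without the knockout arrays, all 463 kept their direction and an unadjusted p under 0.05, but only 7 of them still passed the adjustment.

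**Figure D1:**
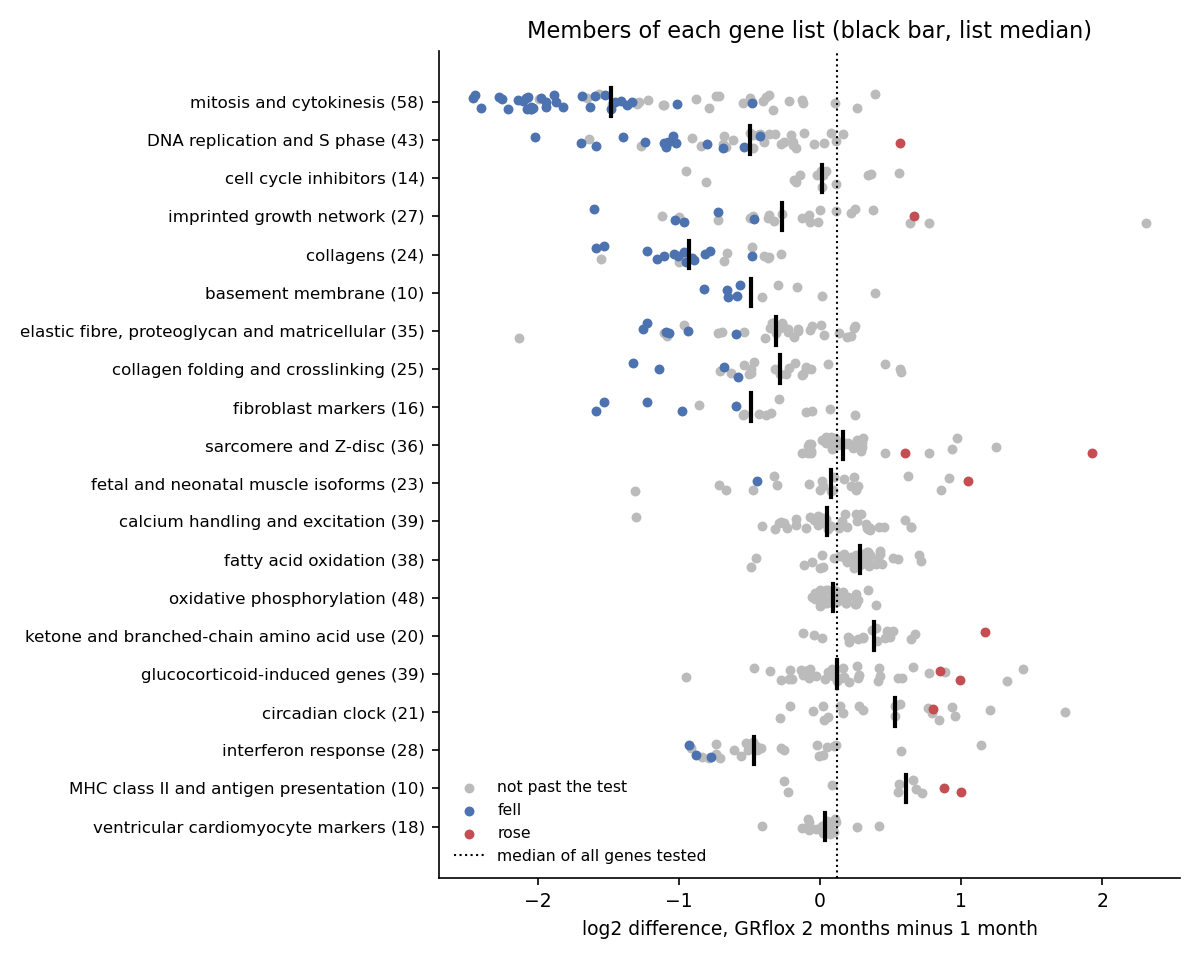
Log2 difference between 2-month and 1-month GRflox hearts (horizontal axis) for every measured member of 20 gene lists (rows, number measured in parentheses), with blue points for members that fell, red for members that rose, grey for members not past the test, a black bar at each list's median and a dotted line at the median of all genes tested (0.12). The list of mitosis and cytokinesis (median -1.48) and that of collagens (median -0.93) lie farthest to the left.

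Genes of mitosis and cytokinesis made up the deepest fall. Of 58 measured members of that list 32 fell and none rose, against 1.33% of all genes falling, and 55 were lower at 2 months, with a list median of -1.48 against 0.12 for all genes. In 41 of the 58 every 2-month heart lay below every 1-month heart, which held for 8.58% of all genes. The level summed over the list and taken back to the linear scale, in multiples of the array's 75th percentile, was 37.4 to 53.4 in the 1-month hearts and 20.1 to 21.5 in the 2-month hearts.

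Prc1, which bundles the microtubules of the midzone between separating chromosomes, stood at 1.13, 1.41 and 0.55 in the 1-month hearts and at -1.55, -1.45 and -1.28 in the 2-month hearts. The groups were far apart, with the third 1-month heart the lowest of its group. Prc1 fell by 2.46 (SE 0.27, adjusted p = 0.0047), a 5.49-fold lower level (probe at chromosome 7, 76185003 to 76185055, build mm7 as in the array annotation). Aurkb, the kinase of the chromosomal passenger complex that corrects faulty attachments of chromosomes to the spindle, stood at -2.75, -2.22 and -3.10 at 1 month and at -4.82, -5.85 and -4.73 at 2 months. All 2-month hearts lay below all 1-month hearts, and the second 2-month heart was the lowest. Aurkb was well above background in only 2 of the 3 hearts at 2 months, and its difference with the normexp background was -0.45 (adjusted p = 0.753). In the fit used, Aurkb fell by 2.44 (SE 0.35, adjusted p = 0.0115; probe at chromosome 11, 69133109 to 69133168, mm7).

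The members that fell cover the successive steps of mitosis. Among regulators of entry, the B-type cyclin Ccnb2 went from 0.56, 1.32 and 0.35 to -1.75, -1.54 and -1.24, and the mitotic kinase Plk1 from -0.43, 0.23 and -0.80 to -2.56, -2.42 and -2.33. In both genes the groups did not overlap and the second 1-month heart was the highest, as it was for Prc1. The falls were 2.25 (SE 0.25) for Ccnb2 and 2.10 (SE 0.24) for Plk1. Cdk1, the kinase that cyclin B switches on, fell by 1.98 on the probe used, while its other probe differed by 0.52 in the opposite direction. Among kinetochore genes, which tie chromosomes to spindle fibres, Nuf2 fell by 2.28, Cenpe fell by 2.08 and Spc25 fell by 1.36. Of the checkpoint kinases that hold mitosis until all chromosomes are attached, Bub1 fell by 2.07 and Bub1b by 1.45, and Cdc20, which the checkpoint restrains, fell by 1.82.

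Birc5 and Cdca8, partners of Aurkb in the passenger complex, fell by 2.14 and 1.94, and the scaffold Incenp by 1.02. Cep55, which acts at the last cut between daughter cells, fell by 2.21, though it was well above background in only 1 of the 3 hearts at 2 months and its other probe differed by -0.50. Ect2, which sets up the contractile ring, fell by 2.08 on the probe used, but its other probe differed by only 0.02. Mki67, the widely used marker of cycling cells, went from 0.76, 1.61 and 0.82 to -0.92, -0.93 and -0.78, with the 2-month hearts close together. It fell by 1.94 (SE 0.23, adjusted p = 0.0048). Top2a, which untangles sister chromosomes, fell by 1.69. Foxm1, the transcription factor that drives many mitotic genes, fell by 1.41. Pbk, a mitotic kinase, fell by 2.40. Among genes outside the list, Neil3, a DNA glycosylase found in dividing cells, fell by 2.12, with 2 of the 3 hearts at 2 months well above background. Pimreg, Ska1 and Sapcd2, also outside it, fell by 2.60, 2.35 and 2.05. Ccnb1, another B-type cyclin, did not pass (-1.99, SE 0.54, adjusted p = 0.104), and its 2-month levels were -5.86, -4.23 and -5.65. Prc1, Aurkb, Ccnb2, Plk1, Mki67 and Nuf2 passed in each of the 6 fits that leave out 1 control array, Bub1 in 4 of them, and Top2a and Pimreg in 2.

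**Figure D2:**
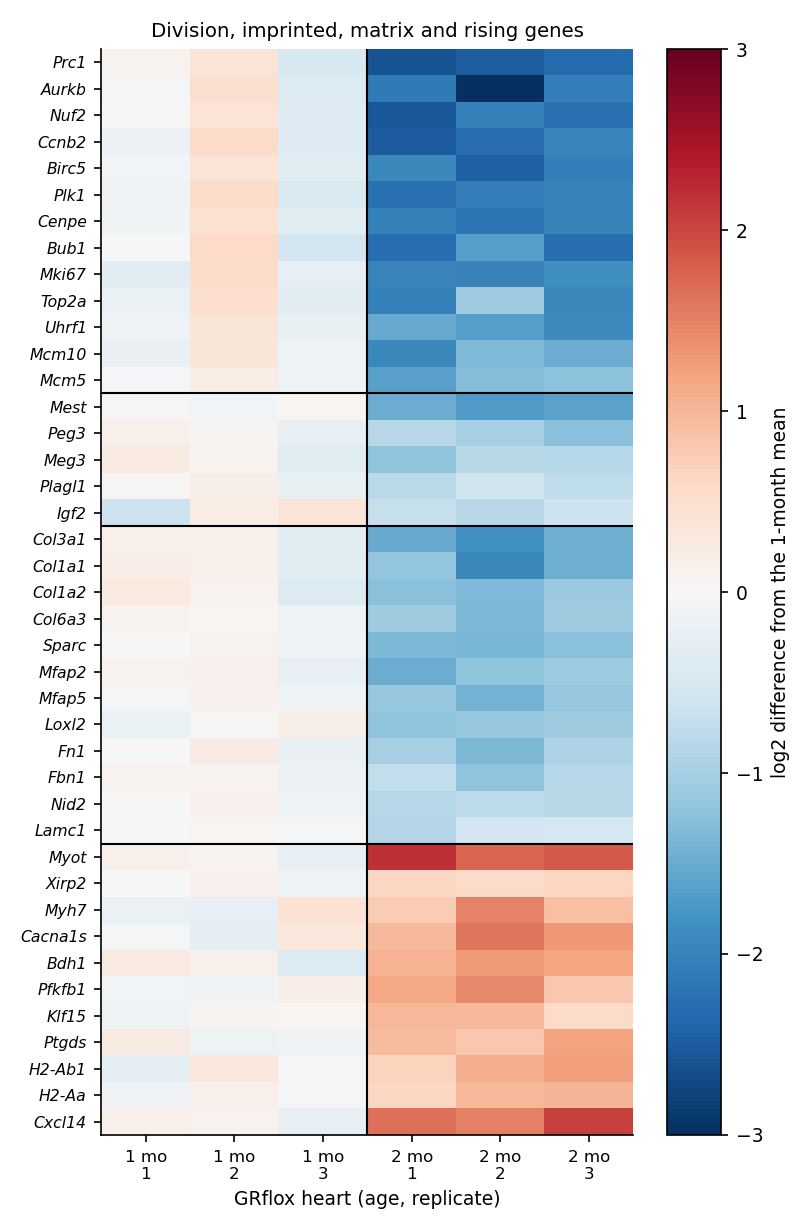
Log2 difference of each GRflox heart (columns, 1-month replicates 1 to 3 then 2-month replicates 1 to 3) from the 1-month mean of the gene, for 13 genes of cell division, 5 imprinted genes, 12 matrix genes and 11 genes higher at 2 months (blocks from top to bottom). Igf2 is shown though it did not pass the test, and every other gene shown fell or rose.

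DNA synthesis genes moved in the same direction to a lesser depth. Of 43 measured genes of DNA replication and S phase 14 fell and 1 rose, against 1.33% and 0.785% of all genes. The list median was -0.50. Mcm5, a subunit of the helicase that opens replication origins, went from 0.26, 0.53 and 0.16 to -1.32, -0.99 and -0.92, a fall of 1.40 (SE 0.14, adjusted p = 0.00347). The groups did not overlap. Its partners Mcm6 and Mcm7 fell by 1.08 and 0.68, and Mcm10, which activates the helicase, by 1.59. Dtl, which marks the licensing factor Cdt1 for destruction, fell by 2.02 and Cdt1 itself by 1.04. Uhrf1, which carries DNA methylation over to new strands, fell by 1.70, and the transcription factor E2f1 by 1.24. The nucleotide-supply genes Tk1 and Rrm1 fell by 1.09 and 0.42. Tyms fell by 1.10 on the probe used, with 1 heart's spot dropped, although another of its probes differed by 1.17 the other way. Gmnn, an inhibitor of origin licensing, was the member that rose (0.57, SE 0.105, adjusted p = 0.0298).

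None of 14 measured cell cycle inhibitors and related genes passed the test, and their median difference was 0.01. Cdkn1c, an imprinted inhibitor of cyclin-dependent kinases, stood at 2.87, 2.54 and 2.64 at 1 month and at 2.88, 2.65 and 2.87 at 2 months, so its groups overlapped. Cdkn1b differed by 0.01 and Cdkn1a by -0.95 (adjusted p = 0.290).

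Promoters of mitotic genes often hold the letters TTTGAA or TTCGAA, the cell cycle homology region bound by the complex that represses these genes in resting cells, together with CCAAT boxes, while promoters of replication genes more often hold E2F sites. These letters were counted on both strands, overlaps between motifs allowed, in the RefSeq promoters of build GRCm38.p6 from 250 bases before to 50 after each start. Of 32 mitotic genes that fell 26 had an entry, with 31 starts (Aurkb, Pbk, Tpx2, Foxm1, Kif20a and Incenp had none). TTTGAA or TTCGAA was in 77.4% of these promoters, against 19.2% of all 32851 in the table, and CCAAT in 80.6% against 37.4%. In the promoters of the whole mitosis list, fallen or not, the shares were 74.5% and 69.1%. The 14 replication genes that fell, with 16 starts, held TTTGAA or TTCGAA in 6.25%, CCAAT in 62.5%, and an E2F match (TTTCCCGC, TTTGGCGC or TTTGCGCC) in 37.5%, against 1.97% of all promoters for the last. A high share of CCAAT was thus common to both sets. Across the whole replication list, fallen or not, an E2F match was in 31.0% of promoters. The E2F letters were in 6.45% of the promoters of the mitotic genes that fell. These shares describe letters only and show no binding. High shares were also found in the whole lists, so the letters do not set apart the members that fell. Windows of 4 mitotic and 2 replication genes are printed to show the layouts, as the 150 bases from 120 before to 30 after the start on the gene's strand, 5′ to 3′. They are Prc1 (chr7:80294331-80294480, plus strand), Ccnb2 (chr9:70421525-70421674, minus), Bub1 (chr2:127831830-127831979, minus), Cdc20 (chr4:118437314-118437463, minus), Dtl (chr1:191575515-191575664, minus) and Mcm6 (chr1:128359676-128359825, minus). Capitals mark the cell cycle homology letters and the CCAAT box, read on either strand, in the first 4 windows, and the E2F letters in the last 2.
Prc1: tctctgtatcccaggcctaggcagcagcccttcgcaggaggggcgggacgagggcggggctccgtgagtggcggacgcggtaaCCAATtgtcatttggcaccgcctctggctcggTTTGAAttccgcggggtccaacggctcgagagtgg
Ccnb2: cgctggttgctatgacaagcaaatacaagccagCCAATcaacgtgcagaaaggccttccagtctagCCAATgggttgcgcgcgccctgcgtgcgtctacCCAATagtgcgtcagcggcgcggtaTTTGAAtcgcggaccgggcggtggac
Bub1: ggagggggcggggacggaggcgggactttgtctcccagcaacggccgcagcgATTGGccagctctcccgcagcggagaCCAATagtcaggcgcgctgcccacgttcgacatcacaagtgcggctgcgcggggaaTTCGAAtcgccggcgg
Cdc20: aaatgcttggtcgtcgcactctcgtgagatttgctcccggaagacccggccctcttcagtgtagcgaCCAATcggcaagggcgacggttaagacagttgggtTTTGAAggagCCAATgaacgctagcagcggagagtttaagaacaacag
Dtl: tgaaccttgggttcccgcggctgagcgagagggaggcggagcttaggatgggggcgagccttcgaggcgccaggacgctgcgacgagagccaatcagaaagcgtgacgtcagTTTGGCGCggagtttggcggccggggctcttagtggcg
Mcm6: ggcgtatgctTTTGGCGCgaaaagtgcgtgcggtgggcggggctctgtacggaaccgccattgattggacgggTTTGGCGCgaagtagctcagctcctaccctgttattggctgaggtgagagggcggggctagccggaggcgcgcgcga
Prc1 and Cdc20 carry TTTGAA just before the start, while just after it Ccnb2 carries TTTGAA and Bub1 TTCGAA. In each of these 4 windows the letters stand behind at least 1 CCAAT box. Within windows of this length both motifs were found together in 13 of the 31 mitotic starts (41.9%) and in 2.25% of all promoters.

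Imprinted genes of fetal growth were lower at 2 months where they passed, with 1 exception. Of 27 measured members of the list 5 fell and 1 rose, against 1.33% and 0.785% of all genes, with a median of -0.27. Mest, a paternally expressed gene of fetal growth, stood at 2.15, 2.04 and 2.18 at 1 month and at 0.64, 0.41 and 0.51 at 2 months (probe at chromosome 6, 30680425 to 30680484, mm7). The hearts of each age lay close together and the ages were wide apart. Mest fell by 1.60 (SE 0.10, adjusted p = 0.00114), a 3.03-fold lower level. Peg3, a zinc finger gene of the same class, fell by 1.03 and Plagl1, a regulator of the imprinted network, by 0.72. Meg3, a maternally expressed noncoding RNA, fell by 0.96 on the probe used, while its 5 probes ran from -0.96 to 0.40. Gatm, an enzyme of creatine synthesis, fell by 0.46. Impact, a regulator of translation, rose by 0.67 (SE 0.08, adjusted p = 0.00673). Mest and Impact passed in each of the 6 fits that leave out 1 control array, Peg3 in 2, Meg3 and Plagl1 in 1, and Gatm in 0.

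Igf2, the main fetal growth factor of the list, did not pass. Its levels were 2.44, 3.29 and 3.44 at 1 month and 2.36, 2.22 and 2.43 at 2 months, a difference of -0.72 (SE 0.23, adjusted p = 0.163). The first 1-month heart lay next to the 2-month hearts, though the groups did not overlap. H19, a maternally expressed noncoding RNA beside it, differed by -0.50 (adjusted p = 0.282), and Dlk1, a growth regulator, did not pass either (adjusted p = 0.212). In the growth hormone and IGF axis none of 19 genes passed (median -0.23), Igf1 among them (-0.60, SE 0.27, adjusted p = 0.329).

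The collagens were lower throughout. All 24 measured collagen genes were lower at 2 months, 14 of them fell (against 1.33% of all genes), none rose, and the median was -0.93. The level summed over the list, in multiples of the 75th percentile, was 223 to 290 at 1 month and 106 to 124 at 2 months. Col3a1, a fibrillar collagen of fibroblasts, stood at 6.05, 6.07 and 5.60 at 1 month and at 4.40, 4.10 and 4.45 at 2 months. Every 2-month heart lay below every 1-month heart. Col3a1 fell by 1.59 (SE 0.16, adjusted p = 0.00347), a 3.01-fold lower level (probe at chromosome 1, 45585395 to 45585454, mm7). The chains of collagen I, the bulk fibre of the ventricle, fell by 1.53 (Col1a1) and 1.23 (Col1a2). The collagen V chains that start fibrils fell by 0.95 (Col5a1) and 0.97 (Col5a2), and Col5a3 by 1.10 on a probe whose partner differed by 0.97 the other way. Col6a1, Col6a2 and Col6a3 of the pericellular network fell by 0.91, 1.03 and 1.16, with the other Col6a3 probe at 0.08. Col4a1 and Col4a2, the collagens of basement membranes, fell by 1.01 and 0.78.

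Fewer of the genes that fold, cut and crosslink collagen passed: 4 of 25 fell, against 1.33% of all genes, with a median of -0.28. Loxl2, a crosslinking enzyme, fell by 1.14, and Sparc, a collagen-binding glycoprotein that goes with collagen secretion, by 1.32. Pcolce, which speeds the cutting of procollagen, fell by 0.58 and Ppib, a proline isomerase of the folding complex, by 0.68. Lox, the founding crosslinking enzyme of the family, varied from -3.69 to -2.11 at 1 month and from -3.90 to -3.29 at 2 months, and its groups overlapped.

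Of 35 genes of elastic fibres, proteoglycans and matricellular proteins 6 fell, against 1.33% of all genes, and none rose (median -0.31). The microfibril genes Mfap2, Mfap5, Mfap4 and Fbn1 fell by 1.26, 1.23, 1.07 and 0.93, although the other Mfap2 probe differed by -0.01. Fn1, fibronectin, fell by 1.09 and Lum, a proteoglycan that spaces collagen fibrils, by 0.60. Eln, elastin itself, stood at 2.44, 2.26 and 0.87 at 1 month and at -0.25, -0.79 and 0.22 at 2 months. Its groups were apart, and it lay just outside the test (-2.13, SE 0.47, adjusted p = 0.0536). Postn, a matrix protein of activated fibroblasts, was also just outside (-1.10, SE 0.24, adjusted p = 0.0537), and its other probe differed by 0.85 the other way. Of 10 basement membrane genes 5 fell, which fell by 0.82 (Nid2), 0.66 (Lamc1), 0.65 (Agrn), 0.59 (Nid1) and 0.57 (Lama4), and the other Agrn probe differed by 0.53 upward.

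With median centring 1 of the 14 collagens still passed, and with all 12 arrays replaced by the 6 control arrays none of the collagens and none of the mitotic genes did. With the normexp background correction no gene passed. The counts without each control array in turn were 22 to 36 for the mitotic genes that fell and 8 to 12 for the collagens, and leaving out GRflox_2month replicate 2 gave 36 and 10.

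Markers of fibroblasts, the cells that make most of this matrix, overlap with the matrix lists. Of 16 fibroblast markers 5 fell, against 1.33% of all genes, and none rose (median -0.49). In this list 14 were lower, where 35.5% of all genes were lower. Their summed level ran from 611 to 622 at 1 month and from 557 to 571 at 2 months. The 5 that fell were Col3a1, Col1a1, Mfap5, Cd248 (a receptor of the fibroblast surface) and Lum. All but Cd248 are matrix genes already counted in the lists above, so they add no separate support. Pdgfra, the receptor that defines cardiac fibroblasts, and its fellow marker Tcf21 did not pass, with differences of -0.10 (adjusted p = 0.648) and -0.35 (adjusted p = 0.358). Dcn, a proteoglycan of the same cells, differed by 0.25. Among 20 endothelial markers none passed and 16 were lower (median -0.23). Of 15 markers of smooth muscle and pericytes 1 fell (Pdgfrb, by 0.47) and 11 were lower. Of 18 macrophage markers 1 fell (Cd68, by 0.61) and 15 were lower. None of 11 epicardial and mesothelial markers passed, and 10 were lower. Every 2-month heart lay below every 1-month heart for 8 endothelial and 7 macrophage markers, against 8.58% of all genes. Of all genes 35.5% were lower and 1.33% fell. None of 18 ventricular cardiomyocyte markers passed, and their median difference was 0.04. The part of a changed mix of cells in the falls was not tested.

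**Figure D3:**
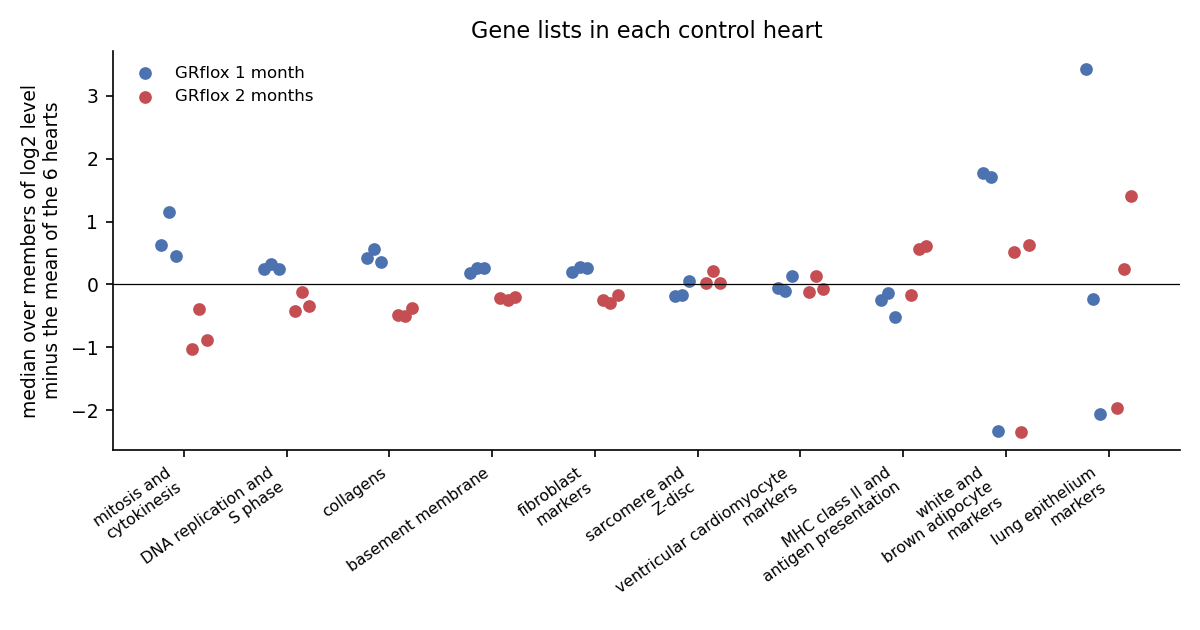
Median over the members of each gene list of the log2 level minus its mean over the 6 control hearts (vertical axis), with 1 point per heart, blue for 1 month and red for 2 months. The lists of mitosis, DNA replication, collagens, basement membrane and fibroblast markers separate the ages, and the adipocyte and lung lists spread within each age.

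Fat and lung markers differed between hearts of the same age. The list median of adipocyte markers, relative to the mean of the 6 hearts, was 1.78, 1.71 and -2.32 at 1 month and 0.52, -2.35 and 0.63 at 2 months. That of lung epithelium markers was 3.43, -0.23 and -2.06 at 1 month and -1.97, 0.24 and 1.41 at 2 months. Neither separated the ages, and none of 18 adipocyte or 14 lung markers passed the test. Scgb3a2, a secreted protein of airway cells, ranged from -3.05 to 5.36 among the 1-month hearts.

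Among muscle genes the changes were few and concerned single genes. Of 36 genes of the sarcomere and Z-disc 2 rose and none fell (median 0.17, close to the 0.12 of all genes), against 0.785% of all genes rising. Myot, which crosslinks actin at the Z-disc, stood at 1.28, 1.20 and 0.88 at 1 month and at 3.32, 2.86 and 2.96 at 2 months. The ages were apart by more than the range within either. Myot rose by 1.92 (SE 0.15, adjusted p = 0.00315), a 3.80-fold higher level. Xirp2, an actin-binding protein of the intercalated disc, rose by 0.60 (SE 0.12, adjusted p = 0.0438).

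Of 23 fetal and neonatal muscle isoforms 1 rose and 1 fell, against 0.785% and 1.33% of all genes. Myh7, the slow myosin heavy chain that dominates the fetal ventricle in mice, went from 4.24, 4.21 and 4.88 to 5.22, 5.92 and 5.35 and rose by 1.05 (SE 0.22, adjusted p = 0.0493), a 2.07-fold higher level at the older age. The groups did not overlap. Myh7 and Xirp2 each passed in only 1 of the 12 fits that leave out 1 array, whereas Myot passed in all 12. Myh6, the adult heavy chain, differed by -0.09 (95% interval -0.41 to 0.24). Tpm3, a slow and cytoskeletal tropomyosin, fell by 0.45. Acta1, the skeletal actin of the fetal heart, differed by 0.92 without passing (adjusted p = 0.220), and the natriuretic peptide genes Nppa and Nppb by 0.02 and 0.09. Cacna1s, the calcium channel subunit of skeletal muscle, was the only one of 20 skeletal muscle markers to pass and rose by 1.29 (SE 0.22). None of 39 genes of calcium handling and excitation passed (median 0.05), with Atp2a2, the calcium pump of the sarcoplasmic reticulum, at 0.19 and its inhibitor Pln at 0.26. The largest difference of that list, in Kcne1, lay just outside the test (-1.30, SE 0.28, limma adjusted p = 0.0564).

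Few genes of fuel use passed. The list medians are to be read against the 0.12 of all genes. None of 38 genes of fatty acid oxidation, 48 of oxidative phosphorylation or 32 of the citric acid cycle and mitochondrial growth passed, and their medians were 0.28, 0.10 and 0.13. In fatty acid oxidation 34 of the 38 were higher at 2 months and 4 lower, where 35.5% of all genes were lower. In 17 of the 38 every 2-month heart exceeded every 1-month heart, against 14.4% of all genes. Of 20 genes of ketone and branched-chain amino acid use 18 were higher and 2 lower (median 0.38), and 1 rose, against 0.785% of all genes rising. That gene was Bdh1, which interconverts the main ketone bodies, at 2.87, 2.75 and 2.19 at 1 month and 3.64, 3.89 and 3.79 at 2 months. It rose by 1.17 (SE 0.23, adjusted p = 0.0377). Pfkfb1, an enzyme that sets the level of a glycolytic activator, was the only one of 28 glycolysis genes (median 0.09) to pass and rose by 1.13 (SE 0.19). Bdh1 passed in 0 and Pfkfb1 in 2 of the 6 fits that leave out 1 control array. Ppargc1a, the coactivator of mitochondrial growth, differed by 0.17 (95% interval -0.26 to 0.60).

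**Figure D4:**
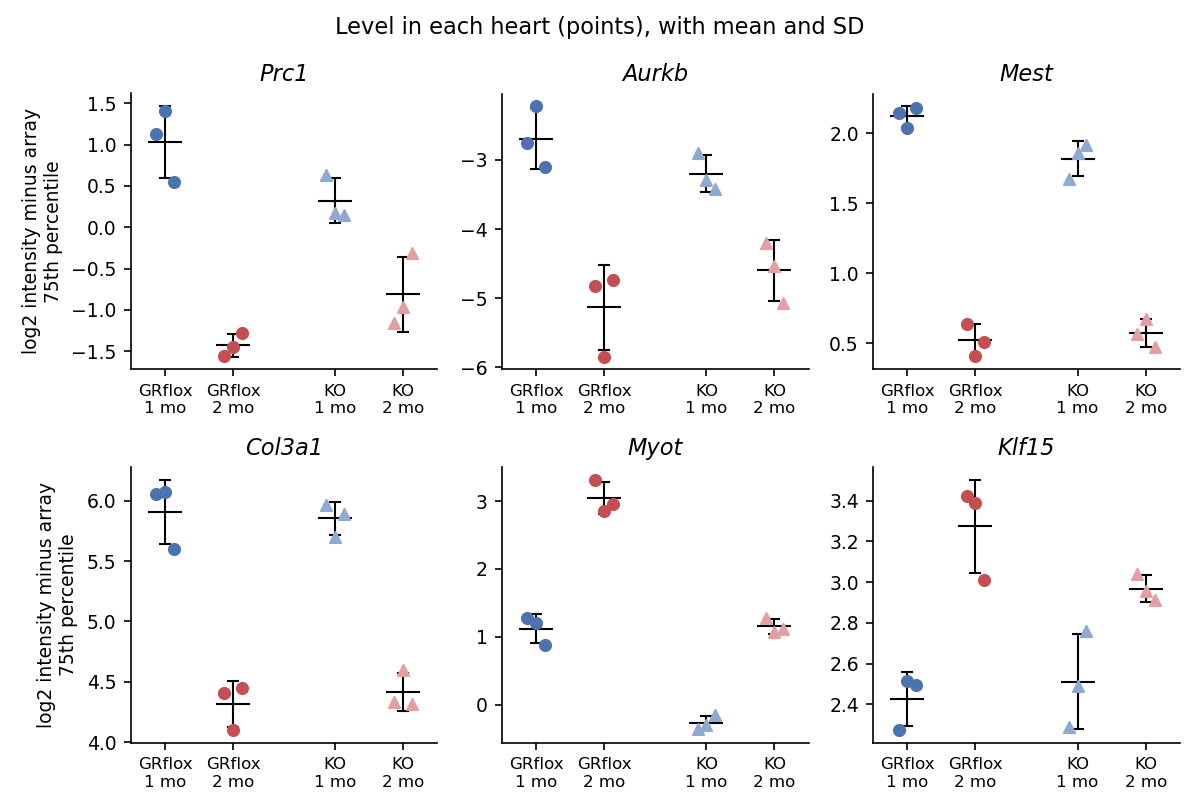
Log2 intensity minus the array's 75th percentile (vertical axes, each with its own range) of 6 genes in each heart: GRflox hearts at 1 and 2 months (circles) and cardioGRKO hearts (KO, triangles) at the same ages, with black bars for the mean and SD of 3 hearts. In GRflox hearts Prc1, Aurkb, Mest and Col3a1 were lower and Myot and Klf15 higher at 2 months, with no overlap between ages.

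Among 39 genes induced by glucocorticoids elsewhere, 2 rose and none fell, against 0.785% of all genes rising. Their median of 0.12 equalled that of all genes. Klf15, a transcription factor of muscle and heart metabolism and a direct target of the receptor in several tissues, stood at 2.27, 2.51 and 2.49 at 1 month and at 3.42, 3.39 and 3.01 at 2 months. The ages did not overlap. Klf15 rose by 0.85 (SE 0.15, adjusted p = 0.0255; probe at chromosome 6, 90553698 to 90553757, mm7). Ptgds, a prostaglandin synthase, rose by 0.99 (SE 0.18). Both passed in 2 of the 6 fits that leave out 1 control array. Fkbp5, a chaperone partner of the receptor, differed by 0.66 (95% interval -0.09 to 1.41), and Tsc22d3 by 0.11. The receptor gene Nr3c1 differed by -0.20 (95% interval -0.47 to 0.08).

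Of 21 clock genes 1 rose and none fell, against 0.785% of all genes rising. The list median was 0.53 with 18 higher and 3 lower, where 35.5% of all genes were lower. However, Dbp, an output gene of the clock, varied widely within an age. It lay at 2.75, 2.14 and 6.27 in the 1-month hearts and at 5.12, 6.13 and 3.54 in the 2-month hearts. The highest and the lowest of these 6 values both belong to 1-month hearts, and the labels used here give no time of day.

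Few genes of the interferon response or of class II antigen presentation passed the test. Of 28 interferon-response genes 3 fell and none rose, against 1.33% of all genes falling. In this list 22 were lower and 6 higher (median -0.47), where 35.5% of all genes were lower. The 3 that fell were Oasl2 (by 0.93), Usp18, which damps interferon signalling (by 0.88), and Rtp4 (by 0.77). Of 10 genes of class II presentation 2 rose and none fell, against 0.785% of all genes rising, with 8 higher and 2 lower (median 0.61). H2-Ab1, a chain of the class II molecule, went from 2.35, 2.99 and 2.59 to 3.30, 3.73 and 3.90 and rose by 1.00 (SE 0.20, adjusted p = 0.0374). Its partner chain H2-Aa rose by 0.88. The class II counts were 0 to 2 and the interferon counts 0 to 2 without each control array in turn. No T or B lymphocyte marker passed.

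The 15 largest rises among genes with a proper symbol and groups that did not overlap were of varied function, with Myot among them. Prr27 and the kallikrein Klk1b16 were not well above background in any 1-month control and were at least 5.97-fold and 2.47-fold higher at 2 months (adjusted p = 0.00347 and 0.00377), bounds set against the dimmest probe above background. These p-values come from the fit to the measured 1-month values, which were not above background, so they carry no more than the bounds do. Klk1b16 belongs to a family of near-identical genes, so its probe may read others. Cxcl14, a chemokine, went from 0.58, 0.52 and 0.17 to 2.09, 1.94 and 2.48 and rose by 1.75 (SE 0.18, adjusted p = 0.00347). The ages did not overlap. The glutathione transferases Gsta1 and Gsta2, closely related genes that a probe may not separate, rose by 1.52 and 1.86. Cpxm2, a carboxypeptidase-like secreted protein, rose by 1.67, and Inmt, a methyltransferase of small amines, by 1.58. Cntn5, a neural adhesion molecule, rose by 2.89. Acsm5, an acyl-CoA synthetase of mitochondria, rose by 2.01 with 1 heart's spot dropped. Mccc1os, a noncoding RNA, rose by 1.93 and Grin3b, a glutamate receptor subunit, by 1.54. Tnip3 and Tspan10 were not well above background at 1 month and were at least 2.37-fold and 1.96-fold higher. Of these genes Tnip3 and Tspan10 passed in 1 of the 6 fits that leave out 1 control array and Mccc1os in 0. Inmt and Acsm5 passed in 2 and Cntn5 in 5, while Cxcl14, Cpxm2, Gsta1, Gsta2 and Grin3b passed in all 6.

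The cardioGRKO hearts are separate animals of the same ages, and neither age group of them shares an array with the control groups. None lay on the slide of the 1-month controls, but cardioGRKO_1month replicates 2 and 3 shared a slide with GRflox_2month replicates 1 and 2, and cardioGRKO_2month replicates 1 and 2 shared a slide with GRflox_2month replicate 3. Between 1 and 2 months 179 genes (0.817%) passed in them, 81 higher (0.37%) and 98 lower (0.447%). Of the 291 genes that fell in controls all 291 were lower at 2 months in knockout hearts, where 37.4% of all genes were lower, and of the 172 that rose 169 were higher. Both contrasts called 133 genes in the same direction, 28.7% of the control calls and 74.3% of the knockout calls, and none in opposite directions. The knockout calls number 0 to 28 when 1 knockout array is left out, 0 with the slide as a fixed block and 111 with it as a random block, so the count of shared calls rests on all 6 knockout arrays. Between the pair of knockout arrays on 1 slide, which have no replicate, 291 of the 291 were lower and 172 of the 172 higher. That pair was scanned on another day than all other arrays. Its median intensities were 223 and 207, against 94 to 143 on the others. Of all genes 37.2% were lower within that slide. The sizes were smaller in knockout hearts, with a median ratio of 0.73 for genes that fell and 0.76 for genes that rose, but these genes were chosen by their size in controls.

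By group, mitotic genes had a median difference of -0.85 in knockout hearts and -1.18 within that slide, and collagens -0.78 and -0.83. The same pair of medians was -0.24 and -0.36 for DNA replication, -0.14 and -0.22 for imprinted genes, -0.42 and -0.53 for the basement membrane and -0.41 and -0.46 for fibroblast markers. It was -0.61 and -0.76 for the interferon response, 0.60 and 0.37 for class II presentation, 0.30 and 0.27 for fatty acid oxidation, and 0.12 and 0.28 for the clock, where the medians of all genes were 0.10 and 0.11. For oxidative phosphorylation it was 0.23 and 0.27, for the sarcomere and Z-disc 0.36 and 0.34, and for fetal and neonatal isoforms 0.32 and 0.15. The control medians of these lists were lower, at 0.10, 0.17 and 0.08. Differences of list medians between the genotypes were not tested. In knockout hearts 5 of 58 mitotic genes and 12 of 24 collagens fell, where 0.447% of all genes did. With the slide as a fixed block 0 of either list fell. Without that block, Mest went in knockout hearts from a mean of 1.82 ± 0.13 to 0.57 ± 0.10 (SD, n = 3). Mest fell by 1.25 in them (limma adjusted p = 0.0105), and Col3a1 by 1.44 (adjusted p = 0.0120). Prc1 went from 0.32 ± 0.27 to -0.81 ± 0.45 (SD, n = 3) and did not pass (-1.13, adjusted p = 0.0997). Myot was lower in knockout hearts at both ages, at -0.27 ± 0.11 and 1.16 ± 0.11 against 1.12 ± 0.21 and 3.05 ± 0.24 in controls (SD, n = 3), and rose by 1.43 with age (adjusted p = 0.0115). Its mean in 2-month knockout hearts was close to that in 1-month controls.

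No gene's age difference itself differed between the genotypes after adjustment by limma (0 of 21909, smallest adjusted p = 0.786). The unadjusted p was under 0.05 for 295 genes (1.35%), fewer than the 1095 met without any difference. With array weights that count was 2021, so the shortfall is no evidence that the age differences are equal. The reason for the shortfall was not tested. Bdh1 was higher by 2.31 in knockout hearts (adjusted p = 0.0115), 1.15 more than in controls (95% interval of control minus knockout -1.88 to -0.41). Prc1 fell by 1.32 more in controls (95% interval -2.19 to -0.46). None of these differences between the genotypes passed the adjustment over all genes.

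**Figure D5:**
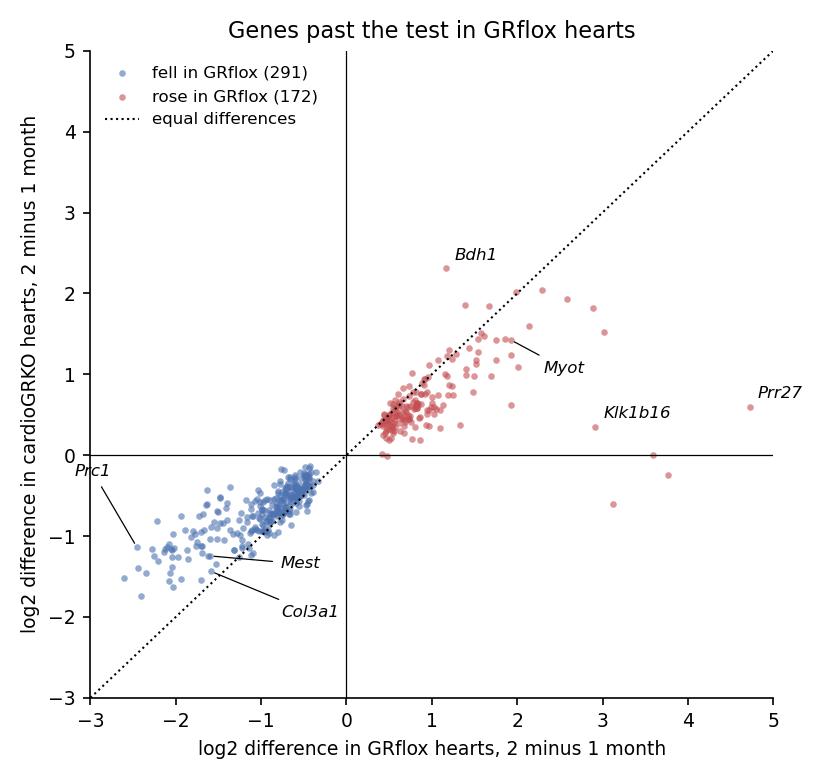
Log2 difference with age in cardioGRKO hearts (vertical axis) against that in GRflox hearts (horizontal axis) for the 463 genes past the test in GRflox hearts, with 291 that fell in blue and 172 that rose in red; the dotted line marks equal differences. All blue points lie below 0 on both axes, 3 red points lie at or below 0 on the vertical axis, and Prr27 and Klk1b16, plotted at fitted values although they have only bounds, lie below the dotted line.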

How the data were processed

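RNA of 12 whole hearts, 3 per genotype and age, was purified on columns with DNase treatment, labelled with Cy3 and hybridised to 1 array each, per the labels' protocols. The deposited scanner files hold intensity per spot on a linear scale, already background-corrected as the processed signal (Agilent Feature Extraction 9.5, per the submitters' processing notes), and the deposited value table was used only as an alternative.

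Here the log2 of the deposited processed intensity was taken and each array's 75th percentile subtracted, control spots and outlier spots being left out. Spots of a probe were averaged. A probe entered if at least 3 of the 12 arrays measured it well above background (32489 of 41174), and each gene was represented by its probe with the highest mean level, leaving 21909 genes tested for the control hearts. Probes were named by RefSeq accession (23082), current symbol (6582), synonym (3073) or the name in the files (8437). Positions of probes come from the array's own annotation (mm7), and promoters are RefSeq's. A single limma fit (limma 3.58.1, R 4.3.3) over all 12 arrays, with 4 groups and no covariate, gave the age effect in control hearts, in knockout hearts and their difference. The adjusted p threshold was 0.05. The script was tested on simulated data.

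Genes were named by a rule: the 6 markers (Prc1, Aurkb, Mest, Col3a1, Myot, Klf15), the 15 largest rises and 15 largest falls with a proper symbol and no overlap between ages, for each list the 6 largest changes past the test or, failing any, its 3 highest levels, and a set of named heart genes. A few genes are not reported here. Further list members were named for their roles or the size of their differences after their values were seen. The members and lists were chosen with earlier results of these data known. The alternatives were other scalings, background corrections, probe filters, probe summaries, variance models, blocks and left-out arrays. Each array is 1 heart of 1 mouse, and n = 3 limits the precision. The p-values set each difference against a spread within groups that was estimated from control and knockout hearts together, not from the control hearts alone.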

Additional observations from a re-analysis of the deposited data

How the results depend on the processing

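The 463 control calls (172 higher, 291 lower) became 3614 (1954 and 1660) with array weights, 786 (333 and 453) with a trended robust variance, 76 (7 and 69) with median centring, 264 (93 and 171) without the filter on dim probes, 253 (83 and 170) with slide as a random block, 229 (95 and 134) without slide 4 and 9 (8 and 1) in the 6 control arrays alone. The normexp background gave 0 in limma (1028 before adjustment), and 445 of the 463 kept their direction. The mean over a gene's probes gave 176 lower, and requiring all 6 control arrays above background gave 265 higher. Leaving out 1 array gave 153 to 418 calls, 54 to 162 higher and 99 to 256 lower. The cause of these shifts was not tested.

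The knockout calls, 179 (81 and 98), became 3717 (2235 and 1482), 440 (227 and 213), 0 with median centring, 31 (16 and 15) without the filter, 111 (54 and 57) with slide as a random block, 0 with slide as a fixed block and 0 without slide 4. They were 0 with normexp, 105 (36 and 69) with quantile normalization, 41 (24 and 17) with the mean over probes and 381 (172 and 209) on all 6 control arrays. Leaving out 1 array gave 0 to 156 (0 to 68 and 0 to 88). The difference between genotypes gave 0 calls under each alternative run.

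Replicate numbers did not pair the hearts: deviations of same-numbered control hearts correlated at -0.27, -0.21 and -0.13. With the replicate number as a block, 191 control genes passed (62 higher, 129 lower) and 0 knockout genes (2930 at an unadjusted p under 0.05). Of the alternative values of the named genes that passed, 1471 stayed past the threshold, 679 kept direction without passing and 1 reversed (Gatm, 0.0834 with normexp against -0.46). Depth of signal limits Prr27, Klk1b16, Tnip3 and Tspan10, which have only bounds at 1 month, and Aurkb, Cep55 and Neil3, which were above background in 2, 1 and 2 of the 3 hearts at 2 months and differed by -0.45, -0.23 and -0.14 with normexp.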

Other observations

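These genes stood in none of the lists and were chosen after their values were seen. Among genes of DNA repair by recombination, Exo1, which trims broken ends, fell by 1.75 and Rad54b by 1.16. Polq, the polymerase of an alternative end-joining route, rose (adjusted p = 0.00347 by limma). Cks2, a small partner of cyclin-dependent kinases, fell by 1.80, and E2f7, a repressor of the E2F family, by 1.13. Tfrc, the receptor for iron uptake, fell by 0.85, and Ckb, the brain form of creatine kinase, by 0.73.

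Pex11a, which drives the division of peroxisomes, rose by 0.50. Acsl6, an acyl-CoA synthetase, rose by 1.44, Capn3, a muscle calpain, by 1.17 and Clu, a secreted chaperone, by 0.96. In the knockout hearts the differences were 0.98 for Polq, 0.97 for Clu, 1.23 for Capn3 and 1.33 for Acsl6.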
